A study of Mus musculus with 12 samples.

Results

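Ferroptosis is a regulated cell death in which iron-driven peroxides build up in membrane phospholipids, and renal tubular cells are known to be prone to it. Acsl4 and Lpcat3 load polyunsaturated fatty acids into the phospholipids that become peroxidised, Gpx4 reduces the peroxides with glutathione, and Aifm2 (FSP1) holds them back without glutathione by recycling ubiquinol. Slc7a11 imports the cystine from which glutathione is made, Chac1 degrades glutathione inside the cell, Dpep1 completes its breakdown at the brush border of the proximal tubule, and Ncoa4 delivers ferritin for degradation so that stored iron is released. These 8 genes are described here, out of 19938 genes measured. A gene was represented by the probe set, the array's unit of measurement, that carried only its symbol and had the highest mean over the 12 arrays. All 8 had such a probe set.

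RNA of mouse renal cortex was hybridised to 12 Affymetrix gene arrays, with 3 arrays per group. The 4 groups compared were GR-deficient mice with acute kidney injury (AKI), healthy GR-deficient mice, control mice with AKI and healthy control mice. AKI was set by an intramuscular glycerol injection 24 hours before dissection, which releases myoglobin and loads the kidney with heme, and healthy mice were an uninjected second cohort. GR-deficient mice were Pax8-Cre;nr3c1 flox/flox, so that a recombinase active in tubular epithelium removes floxed sequence of Nr3c1, the glucocorticoid receptor (GR) gene. Control mice were nr3c1 flox/flox without Pax8-Cre, and all mice thus carried the floxed alleles. Any effect of Pax8-Cre itself is part of the genotype difference, and any difference between the cohorts is part of the AKI difference. The labels used here do not say how old the mice were or whether every array had its own animal. The p-values therefore reflect the scatter among these arrays, part of which may be technical.

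Values are the deposited log2 expression values. Each difference (log2) carries ± the standard error of a limma fit to all genes and arrays. A gene passed at an adjusted p under 0.05 (Benjamini-Hochberg over 19938 genes, n = 3 per group).

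Nr3c1 lay between 7.87 and 8.10 in GR-deficient AKI, between 8.13 and 8.21 in healthy GR-deficient, between 8.82 and 8.89 in control AKI and between 9.48 and 9.65 in healthy control cortex. It was lower in every GR-deficient array than in any control array. The limma difference was -1.38 ± 0.10 in healthy mice (adjusted p = 1.73e-05) and -0.88 ± 0.10 in AKI (adjusted p = 2.69e-05). Whether its probes fall in the floxed sequence is unknown here, so these values may not measure the deletion itself. Control AKI replicate 1 was separated from the rest along the second principal component (score 33.8, with the others from -21.6 to 11.6). Healthy GR-deficient replicate 1 was separated along the third (34.8, with the others from -14.5 to 5.83). The defining markers of the cortex were present: the 10 proximal tubule markers averaged at least 10.6 (log2) on every array.

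Slc7a11, Acsl4 and Chac1 rose with AKI in control mice and Dpep1 fell, and in GR-deficient mice each of these 4 responses was smaller. After AKI, Slc7a11, Chac1 and Acsl4 were lower in GR-deficient than in control cortex and Dpep1 and Gpx4 were higher. No member passed between the genotypes in healthy mice. Aifm2, Lpcat3 and Ncoa4 passed in none of these comparisons.

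Counted together, 2 of 8 members rose and 0 fell with AKI in GR-deficient mice, where 4.64% of all genes passed (3.29% higher and 1.35% lower). In control mice 3 rose and 1 fell, where 28.7% of all genes passed (13.6% higher and 15.1% lower). The interaction, which is the AKI difference of GR-deficient mice minus that of control mice, passed for 4 of 8 (1 positive and 3 negative), against 11.5% of all genes (7.39% positive and 4.06% negative). Between the genotypes 5 of 8 passed in AKI, 2 higher and 3 lower in GR-deficient cortex, against 17.4% of all genes (10% higher and 7.34% lower). In healthy mice 0 of 8 passed in limma, against 0.145% of all genes, and Gpx4 and Lpcat3 had an unadjusted p under 0.05.

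The arrays of the 2 groups did not overlap for 5 of 8 members with AKI in GR-deficient mice, against 25.3% of all genes, and for 5 of 8 with AKI in control mice, against 39.6%. Between the genotypes they did not overlap for 5 of 8 in AKI, against 32.8% of all genes, and for 4 of 8 in healthy mice, against 18.6%. The median difference over the 8 was 0.11 for AKI in GR-deficient mice, 0.02 for AKI in control mice and 0.01 for GR deficiency in AKI, with members on both sides of 0. Comparisons that share a group are not independent of each other.

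**Figure D1:**
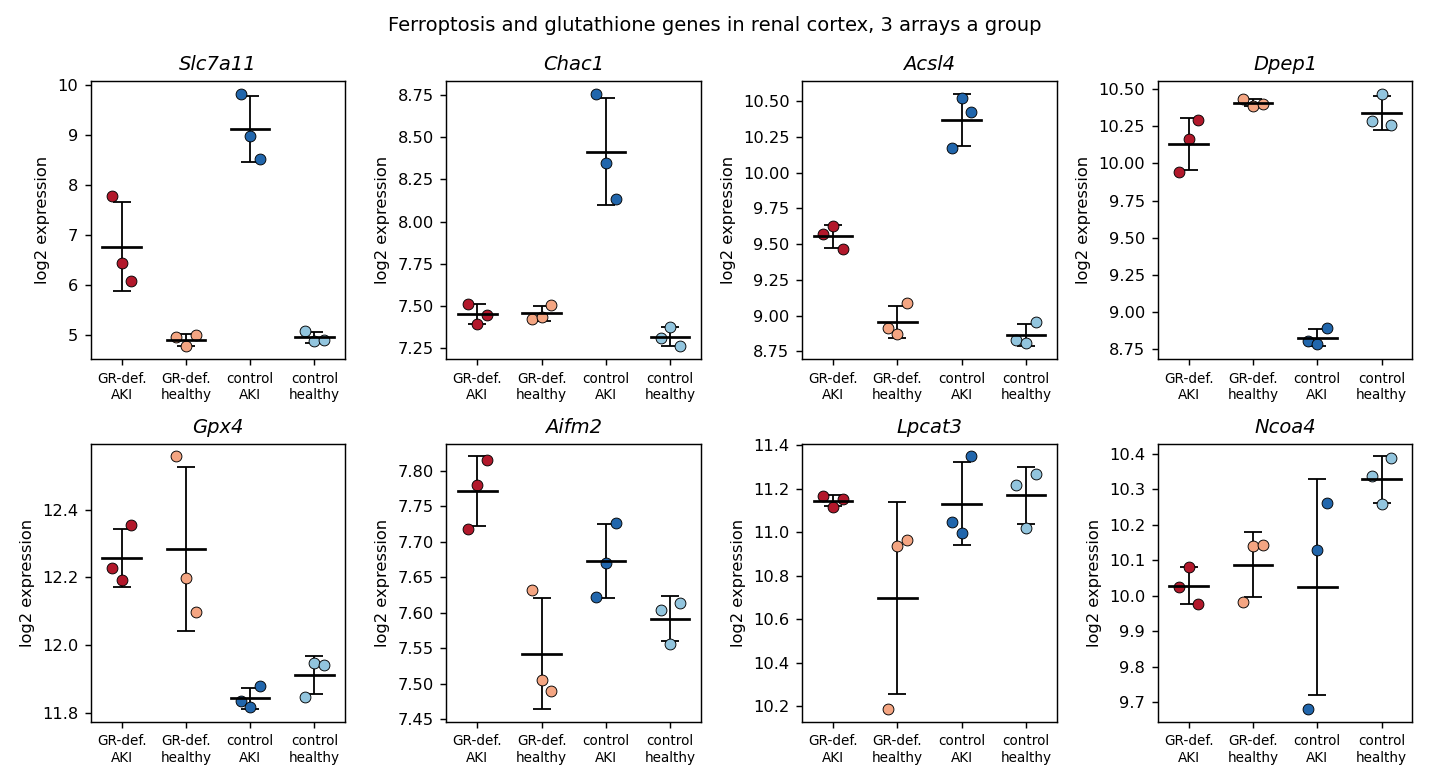
Log2 expression of the 8 genes on each array (points, replicates 1 to 3 from left to right) with the group mean (bar) and SD (whiskers), each panel on its own axis. Slc7a11, Chac1 and Acsl4 are highest in control AKI cortex, with means of 9.11, 8.41 and 10.37, and Dpep1 is lowest there at 8.83.

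The cystine transporter Slc7a11 had log2 values of 7.78, 6.44 and 6.09 in GR-deficient AKI cortex, against 4.97, 4.78 and 4.99 in healthy GR-deficient cortex. In control mice it had 9.82, 8.98 and 8.52 with AKI, against 5.09, 4.88 and 4.90 when healthy. Every AKI array was above every healthy array, and every control AKI array was above every GR-deficient AKI array. The order of the group means was control AKI (9.11), GR-deficient AKI (6.77), healthy control (4.96) and healthy GR-deficient (4.91), and only the arrays of the 2 healthy groups overlapped. Its healthy values were below 6, the level used in an alternative that left out dim genes, so it passed that filter through its AKI arrays.

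AKI raised Slc7a11 by 1.86 ± 0.35 in GR-deficient mice (adjusted p = 0.00799), which is 3.62-fold, and by 4.15 ± 0.35 in control mice (adjusted p = 6.16e-07), which is 17.8-fold. The response of GR-deficient mice was smaller than that of control mice (interaction -2.30 ± 0.50, adjusted p = 0.0078). Between the genotypes, Slc7a11 was lower in GR-deficient AKI cortex by 5.06-fold (log2 difference -2.34 ± 0.35, adjusted p = 0.000329). In healthy mice the difference was -0.04, with a 95% confidence interval of -0.80 to 0.71. Replicate 1 was the highest array in both AKI groups. Without it in GR-deficient mice their response was 1.35 (adjusted p = 0.0279), and without it in control mice theirs was 3.80 (adjusted p = 1.94e-06). The interaction was -2.80 without the GR-deficient and -1.94 without the control array.

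Chac1, the cytosolic enzyme that cleaves glutathione, passed with AKI in control mice and not in GR-deficient mice. Its log2 values were 7.51, 7.39 and 7.44 in GR-deficient AKI cortex, against 7.42, 7.43 and 7.51 in healthy GR-deficient cortex. They were 8.76, 8.35 and 8.13 in control AKI cortex, against 7.31, 7.38 and 7.26 in healthy control cortex. The 3 control AKI arrays stood above the other 9, and the AKI and healthy arrays of GR-deficient mice overlapped. The AKI difference was -0.01 in GR-deficient mice (95% confidence interval -0.29 to 0.28, adjusted p = 0.991) and 1.10 ± 0.13 in control mice (2.14-fold, adjusted p = 1.52e-05). The interaction was -1.10 ± 0.19 (adjusted p = 0.00158). After AKI, Chac1 was lower in GR-deficient cortex (log2 difference -0.96 ± 0.13, adjusted p = 0.000148). Without control AKI replicate 1, the highest array, the control response was 0.93 (adjusted p = 9.94e-06) and the interaction -0.93 (adjusted p = 0.000701). The GR-deficient arrays of both conditions lay above the healthy control arrays by a small margin, and that difference in healthy mice did not pass (0.14, adjusted p = 0.775).

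Both Slc7a11 and Chac1 are known targets of ATF4, the transcription factor of the integrated stress response, and their promoters are shown for that reason. The windows run from 250 bases before to 50 bases after a RefSeq start site on GRCm38.p6 and are written 5′ to 3′ on the gene's strand. Capitals mark matches to TGATGNAA on either strand, a core of the ATF4 element. The Slc7a11 window is chr3:50443564-50443863 on the minus strand, with its start site inside the annotated gene span (chromosome 3, 50364936 to 50499087). The Chac1 window is chr2:119350992-119351291 on the plus strand.
Slc7a11: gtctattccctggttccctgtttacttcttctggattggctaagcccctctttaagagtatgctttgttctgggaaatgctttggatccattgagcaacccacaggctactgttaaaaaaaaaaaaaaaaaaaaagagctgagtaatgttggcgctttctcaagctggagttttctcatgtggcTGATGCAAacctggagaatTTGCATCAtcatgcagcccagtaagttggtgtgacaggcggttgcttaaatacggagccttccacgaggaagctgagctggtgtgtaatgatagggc
Chac1: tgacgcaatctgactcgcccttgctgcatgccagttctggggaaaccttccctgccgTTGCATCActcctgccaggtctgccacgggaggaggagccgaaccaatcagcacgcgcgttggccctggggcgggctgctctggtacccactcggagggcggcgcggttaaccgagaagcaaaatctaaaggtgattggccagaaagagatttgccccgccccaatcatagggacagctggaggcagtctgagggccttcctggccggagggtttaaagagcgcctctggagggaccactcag

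The Slc7a11 window held 2 matches that face each other, TGATGCAA on the gene's strand starting at position -66 and TTGCATCA, its reverse complement, starting at -47. The Chac1 window held 1, TTGCATCA starting at -193. Of all 32851 promoter windows of this length, 3.97% held at least 1 match and 0.07% held 2 or more. None of the 11 windows of the other 6 members held one. The NRF2 core TGACNNNGC, present in 12.4% of all windows, was found in 1 window of the members, of Ncoa4. The palindromic core of the glucocorticoid receptor element, present in 0.475% of all windows, was found in none of the 13 windows. A match is a run of letters in a short window and no measurement of binding.

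Beside Slc7a11 and Chac1, the ATF4 target list held 16 genes, chosen with earlier results of these data known. Most of them rose in control AKI and were lower in GR-deficient than in control AKI cortex. With AKI in GR-deficient mice, 4 of 16 rose and 0 fell (median 0.32, with -0.03 over all genes), where 4.64% of genes passed. In control mice 13 rose and 2 fell (median 1.02, with 0.00 over all genes), where 28.7% passed. Between the genotypes after AKI, 2 were higher and 11 lower in GR-deficient cortex (median -0.82, with -0.04 over all genes), where 17.4% passed. The interaction passed as negative for 9 of the 16, against 4.06% of all genes. It passed as positive for 2, against 7.39% of all genes: Vldlr (0.99, adjusted p = 0.000525) and Shmt2 (1.37, adjusted p = 0.000793). The transcription factors Atf4 (1.49), Atf3 (3.50) and Ddit3 (2.14) rose with AKI in control mice. Their differences in GR-deficient mice did not pass (0.19, 1.04 and 0.49, adjusted p from 0.0712 to 0.439). The genes of this list that rose there were Phgdh (1.12), the entry enzyme of serine synthesis, Asns (1.21), asparagine synthetase, Mthfd2 (0.84), a mitochondrial folate enzyme, and Slc3a2 (0.40), beside Slc7a11. The Slc3a2 call was lost after quantile normalization (0.0625) and cyclic loess (0.0795), over all probe sets (0.0885), with the replicate block (0.0795), and without GR-deficient AKI replicate 1, 2 or 3 or healthy GR-deficient replicate 1 or 2 (adjusted p from 0.0905 to 0.21).

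Dpep1 moved against Slc7a11. This brush border dipeptidase had log2 values of 9.94, 10.16 and 10.29 in GR-deficient AKI cortex, against 10.43, 10.39 and 10.40 in healthy GR-deficient cortex. In control mice it had 8.81, 8.78 and 8.89 with AKI, against 10.28, 10.47 and 10.26 when healthy. The 3 control AKI arrays lay more than 1 log2 unit below every other array, and in each genotype the AKI arrays lay below the healthy ones. The AKI difference was -0.27 ± 0.11 in GR-deficient mice (adjusted p = 0.184, not passed) and -1.51 ± 0.11 in control mice (adjusted p = 1.39e-07), where the level fell 2.85-fold. The interaction was 1.24 ± 0.15 (adjusted p = 0.0002), and after AKI Dpep1 was 2.47-fold higher in GR-deficient cortex (log2 difference 1.31 ± 0.11, adjusted p = 2.72e-06). In bulk cortex, fewer cells of a type and less RNA per cell cannot be told apart.

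Markers of the proximal tubule, the segment that carries Dpep1, moved the same way. Of 10 markers, 0 rose and 10 fell with AKI in control mice, where 28.7% of all genes passed. In GR-deficient mice 0 rose and 2 fell, where 4.64% of all genes passed. The 2 were Slc5a2 (-0.64), a glucose carrier, and Miox (-0.46), an inositol oxygenase, and 0 fell without GR-deficient AKI replicate 1. Their summed level, on the linear scale, lay between 48959 and 56264 in GR-deficient AKI, between 50282 and 68209 in healthy GR-deficient, between 19244 and 25573 in control AKI and between 68968 and 71882 in healthy control cortex. After AKI, 10 of 10 were higher in GR-deficient cortex, against 10% of all genes, and none was at 0 on any array. Leaving out control AKI replicate 1 gave 9 of 10, as did leaving out GR-deficient AKI replicate 1. The part of these markers in the Dpep1 result was not tested.

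Acsl4, the ligase that activates arachidonic and related fatty acids, had log2 values of 9.57, 9.62 and 9.47 in GR-deficient AKI cortex, against 8.91, 8.87 and 9.09 in healthy GR-deficient cortex. In control mice it had 10.17, 10.52 and 10.42 with AKI, against 8.83, 8.81 and 8.96 when healthy. The groups fell into 3 levels without overlap: control AKI on top, GR-deficient AKI below it, and both healthy groups together at the bottom. AKI raised Acsl4 by 0.60 ± 0.11 in GR-deficient mice (1.51-fold, adjusted p = 0.00777) and by 1.51 ± 0.11 in control mice (2.84-fold, adjusted p = 2.12e-07). The response was smaller in GR-deficient mice (interaction -0.91 ± 0.16, adjusted p = 0.00202), and after AKI their Acsl4 was lower (log2 difference -0.82 ± 0.11, adjusted p = 0.000158). In healthy mice the difference was 0.09 (95% confidence interval -0.15 to 0.33).

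Lpcat3, which inserts the activated fatty acid into phospholipid, passed in no comparison. Its log2 values were 11.17, 11.12 and 11.16 in GR-deficient AKI cortex, against 10.19, 10.94 and 10.96 in healthy GR-deficient cortex. In control mice it had 11.05, 10.999 and 11.35 with AKI, against 11.22, 11.02 and 11.27 when healthy. The healthy GR-deficient group was lowest and overlapped no other, and its replicate 1, the array that stood apart on the third component, was the lowest of all 12. The AKI difference did not pass in GR-deficient mice (0.45 ± 0.17, adjusted p = 0.178, and 0.19 without that array) or in control mice (-0.04 ± 0.17, adjusted p = 0.925). Nor did the genotype difference in healthy mice (-0.47 ± 0.17, adjusted p = 0.346), which was -0.22 without that array.

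The list of phospholipid substrate and peroxidation genes held 16 measured genes, Acsl4 and Lpcat3 among them. With AKI in GR-deficient mice 1 rose and 1 fell, where 4.64% of all genes passed. In control mice 4 rose and 7 fell, where 28.7% of all genes passed. Acsl4 rose in both genotypes. The gene that fell in GR-deficient mice was Agps (-0.61, adjusted p = 0.0341), a call lost over all probe sets (0.0921) and without any 1 of the 6 GR-deficient arrays other than healthy replicate 1 (adjusted p from 0.0778 to 0.138). Fads2 (-2.07), a fatty acid desaturase, Agps (-1.60) and Far1 (-0.89), which serve ether lipid synthesis, fell with AKI in control mice, and Mboat1 (1.16), another phospholipid acyltransferase, rose. After AKI, Fads2 (1.41), the desaturase Fads1 (0.87) and the stearoyl desaturase Scd1 (1.06) were higher in GR-deficient cortex, and Sat1 (-0.52), a polyamine acetylase, was lower. In healthy mice Agps was the gene of this list that passed (-1.04 in GR-deficient minus control cortex, adjusted p = 0.0144), and it did not pass over all probe sets (0.0933) or without healthy control replicate 1 (0.101) or 3 (0.0546).

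Gpx4 was higher in GR-deficient cortex, and its AKI differences did not pass. The phospholipid peroxidase had log2 values of 12.23, 12.19 and 12.35 in GR-deficient AKI cortex, against 11.83, 11.82 and 11.88 in control AKI cortex. In healthy mice it had 12.56, 12.20 and 12.10 in GR-deficient cortex, against 11.85, 11.95 and 11.94 in control cortex. All 6 GR-deficient arrays were above all 6 control arrays, while the AKI and healthy arrays of each genotype overlapped. After AKI, Gpx4 was 1.33-fold higher in GR-deficient cortex (log2 difference 0.42 ± 0.12, adjusted p = 0.0236). In healthy mice the difference was of like size and did not pass (0.37 ± 0.12, adjusted p = 0.263). It was 0.24 without healthy GR-deficient replicate 1, the highest array. The AKI difference was -0.03 in GR-deficient mice (95% confidence interval -0.28 to 0.22) and -0.07 in control mice (95% confidence interval -0.32 to 0.18), and the interaction was 0.04 ± 0.17 (adjusted p = 0.914).

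Averaged over both conditions, a contrast added after the values were seen, Gpx4 was higher in GR-deficient cortex by 0.39 ± 0.08 (adjusted p = 0.0089), where 8.46% of all genes passed. In AKI alone the call was marginal and was lost after cyclic loess normalization (adjusted p = 0.0659), over all probe sets (0.0522), and without GR-deficient AKI replicate 1 (0.0543), GR-deficient AKI replicate 3 (0.0985) or control AKI replicate 2 (0.0737). The averaged call passed in all 20 alternatives, with adjusted p up to 0.0298. It was picked after these same values, so it adds no separate support for the Gpx4 difference. Nor can it show a difference in each condition: 5 of 8 members passed it, among them Slc7a11 (-1.19, adjusted p = 0.00866). The Slc7a11 difference in healthy mice was -0.04. A second Gpx4 probe set gave a genotype difference of 0.43 ± 0.12 in AKI and 0.36 ± 0.12 in healthy mice. RefSeq lists the Gpx4 pseudogenes Gpx4-ps1 and Gpx4-ps2, and near-identical copies may share signal with these probe sets, so the value is uncertain in its source.

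Aifm2, the glutathione-independent suppressor, stayed within a narrow range. Its log2 values were 7.72, 7.78 and 7.82 in GR-deficient AKI cortex, against 7.63, 7.51 and 7.49 in healthy GR-deficient cortex. In control mice it had 7.62, 7.67 and 7.73 with AKI, against 7.60, 7.56 and 7.61 when healthy. In each genotype the AKI arrays lay above the healthy ones, yet neither difference passed (0.23 ± 0.09, adjusted p = 0.19 in GR-deficient mice, and 0.08 ± 0.09, adjusted p = 0.622 in control mice). With array quality weights the difference in GR-deficient mice passed (0.25, adjusted p = 0.033).

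Of 16 measured suppressors of lipid peroxidation, 5 rose and 0 fell with AKI in GR-deficient mice, where 4.64% of all genes passed. Without GR-deficient AKI replicate 1, only 2 rose, Nqo1 and Hspb1. In control mice 6 rose and 2 fell, where 28.7% of all genes passed. Nqo1, a quinone reductase, rose in both genotypes, by 1.66 in GR-deficient and 1.78 in control mice, and the interaction was -0.12 (95% confidence interval -0.50 to 0.26). Nfe2l2, which encodes the transcription factor NRF2, rose by 0.54 in GR-deficient and 0.61 in control mice. It is named outside the rule for named genes, after its values were seen, and the activity of NRF2 was not tested. Unlike the other named genes, Nfe2l2 was not followed by itself through the alternatives. Hspb1, a small heat shock protein, Gch1, the entry enzyme of tetrahydrobiopterin synthesis, and Txnrd1, thioredoxin reductase, rose by 1.80, 0.74 and 0.77 in GR-deficient mice and by 4.39, 2.11 and 1.81 in control mice. After AKI these 3 were lower in GR-deficient cortex (-2.01, -1.42 and -0.999), and their interactions passed (adjusted p from 0.000331 to 0.00444). Over the list 2 were higher and 3 lower after AKI, where 17.4% of all genes passed. The higher ones were Gpx4 and Sepsecs (0.46, adjusted p = 0.0348), an enzyme of selenocysteine synthesis whose interaction was 0.81 (0.0158). The Sepsecs difference after AKI did not pass over all probe sets (0.0818) or without any 1 of AKI replicates 1, 2 and 3 of GR-deficient mice or 1 and 2 of control mice (adjusted p from 0.0644 to 0.137). In GR-deficient mice Txnrd1 did not pass without AKI replicate 1 (adjusted p = 0.0531), and Gch1 did not pass over all probe sets (0.0585) or without AKI replicate 1 or 2 or healthy replicate 1 or 2 (adjusted p from 0.0612 to 0.103).

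Ncoa4, the ferritin receptor of iron release, had log2 values of 10.03, 10.08 and 9.98 in GR-deficient AKI cortex, against 9.98, 10.14 and 10.14 in healthy GR-deficient cortex. In control mice it had 9.68, 10.13 and 10.26 with AKI, against 10.34, 10.26 and 10.39 when healthy. The healthy control arrays were higher than the GR-deficient ones and overlapped the control AKI arrays, of which replicate 1 was lowest. The AKI difference was -0.06 ± 0.13 in GR-deficient mice (adjusted p = 0.863) and -0.30 ± 0.13 in control mice (adjusted p = 0.107). The difference in control mice was -0.13 without control AKI replicate 1, and it passed under 3 alternatives: cyclic loess (adjusted p = 0.0378), array quality weights (0.0332) and without control AKI replicate 3 (0.0278). A second probe set gave -0.23 ± 0.11, and the pseudogene Ncoa4-ps limits what both can be assigned to.

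Beside Ncoa4, the list of iron uptake, storage and export held 17 genes. Of these 17, 4 rose and 0 fell with AKI in GR-deficient mice, with 13 not passing, where 4.64% of all genes passed. In control mice 4 rose and 5 fell, with 8 not passing, where 28.7% of all genes passed. The 4 in GR-deficient mice were Hmox1, Tfrc, the ferritin light chain Ftl1 (0.60) and the iron exporter Slc40a1 (0.54). Without AKI replicate 1 in GR-deficient mice, only Hmox1 of these 4 passed, and Ftl1 did not (adjusted p = 0.0563). Slc40a1 also failed over all probe sets (0.0829), with the replicate block (0.0631) and without AKI replicate 1 or 2 or healthy replicate 1 or 2 (adjusted p from 0.108 to 0.16). Ftl1 (0.58) and Slc40a1 (0.55) also rose in control mice. Hmox1, the enzyme that frees iron from heme, rose by 1.73 in GR-deficient and by 3.77 in control mice. Tfrc, the transferrin receptor, rose in GR-deficient mice (0.99, adjusted p = 0.00936, and 0.057 without GR-deficient AKI replicate 1), with a difference of 0.15 in control mice that did not pass, and an interaction of 0.84 that did not pass either (adjusted p = 0.064). The zinc and iron importer Slc39a14 rose with AKI in control mice (1.23) and was lower in GR-deficient than in control AKI cortex (-1.47). Cisd1, an iron-sulfur protein of the outer mitochondrial membrane, and Aco1, which doubles as the iron regulatory protein, fell with AKI in control mice (-0.75 and -0.81), and their differences in GR-deficient mice did not pass (-0.28 and -0.09). After AKI, 4 of the 17 were higher and 2 lower in GR-deficient cortex, where 17.4% of all genes passed. Among the higher were Cisd1 (0.50) and Aco1 (0.51) and among the lower Hmox1 (-1.79). Without GR-deficient AKI replicate 1, 2 were higher and 2 lower.

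**Figure D2:**
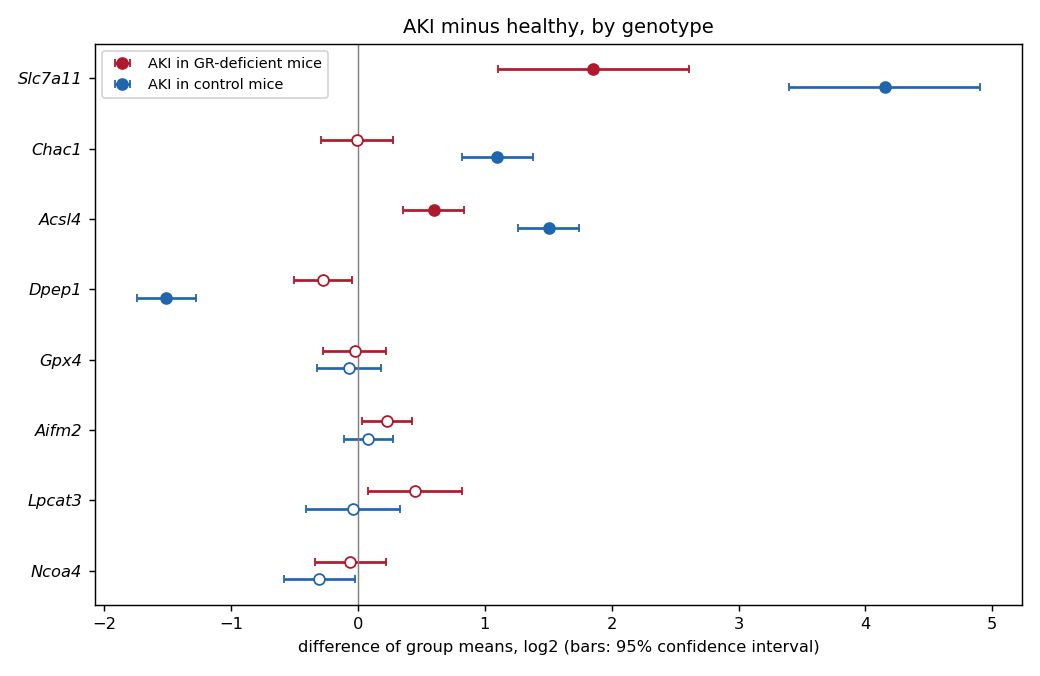
Difference between AKI and healthy cortex (log2, x axis) for each gene, in GR-deficient mice (red, upper) and control mice (blue, lower), with 95% confidence intervals from limma; filled points passed at an adjusted p under 0.05. Slc7a11 stands at 1.86 in GR-deficient and 4.15 in control mice, and the intervals of Gpx4 span 0 in both.

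**Figure D3:**
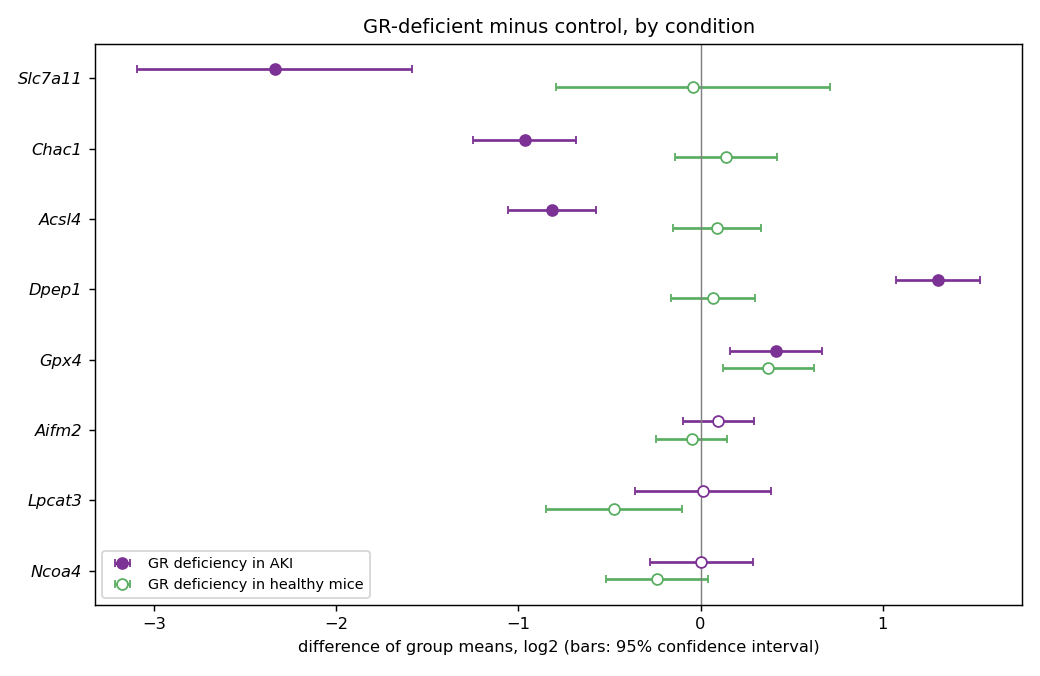
Difference between GR-deficient and control cortex (log2, x axis) for each gene, in AKI (purple, upper) and in healthy mice (green, lower), with 95% confidence intervals from limma; filled points passed at an adjusted p under 0.05. Slc7a11, Chac1 and Acsl4 lie below 0 in AKI, Dpep1 and Gpx4 above it, and no gene passed in healthy mice.

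Beside Slc7a11, the list of cystine import and glutathione synthesis held 11 genes. Of these 11, 2 rose and 1 fell with AKI in GR-deficient mice, where 4.64% of all genes passed. In control mice 3 rose and 7 fell, where 28.7% of all genes passed. The 2 that rose in GR-deficient mice were Slc3a2 and Gclc, and without GR-deficient AKI replicate 1 neither passed. In control mice Slc3a2 (1.00), the heavy chain that pairs with Slc7a11, rose, whereas Slc3a1 (-0.99), the heavy chain of the apical cystine carrier, Slc1a1 (-1.43), an apical glutamate and cysteine carrier, and Cbs (-1.79), which starts transsulfuration from homocysteine to cysteine, fell. Cbs also fell in GR-deficient mice (-0.78, adjusted p = 0.00243), where Gclc, the catalytic subunit of the rate-limiting ligase, rose by 0.56 (adjusted p = 0.0258), a call lost over all probe sets (0.0701) and without AKI replicate 1 or 2 or healthy replicate 1 or 2 (adjusted p from 0.0881 to 0.147). After AKI, 7 of the 11 were higher and 3 lower in GR-deficient cortex, where 17.4% of all genes passed. Slc1a1 (0.96), Slc3a1 (0.69) and Slc7a9 (0.98), the light chain that pairs with Slc3a1, were higher, and Slc3a2 (-0.66) was lower.

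Beside Chac1 and Dpep1, the list of glutathione breakdown and recycling held 11 measured genes. Of these 11, 0 rose and 1 fell with AKI in GR-deficient mice, where 4.64% of all genes passed. In control mice 1 rose and 6 fell, where 28.7% of all genes passed. Anpep, the brush border aminopeptidase that acts beside Dpep1, fell by 2.03 in control mice and differed by 0.03 in GR-deficient mice (interaction 2.06 ± 0.29, adjusted p = 0.000523). Ggct, which processes gamma-glutamyl amino acids, fell in both genotypes (-0.65 in GR-deficient and -1.22 in control mice). Chac2 (-1.20), the constitutive relative of Chac1, and the aminopeptidase Lap3 (-0.71) fell in control mice. After AKI, Anpep (1.75), Ggct (0.60) and Chac2 (1.00) were higher in GR-deficient cortex, and Dpep2 (-0.62), a related dipeptidase, was lower. The Dpep2 call was lost after quantile normalization (0.0512) and cyclic loess (0.064), over all probe sets (0.0683) and without GR-deficient AKI replicate 3 (0.0983). Without control AKI replicate 2 its difference was -0.40 (adjusted p = 0.114).

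**Figure D4:**
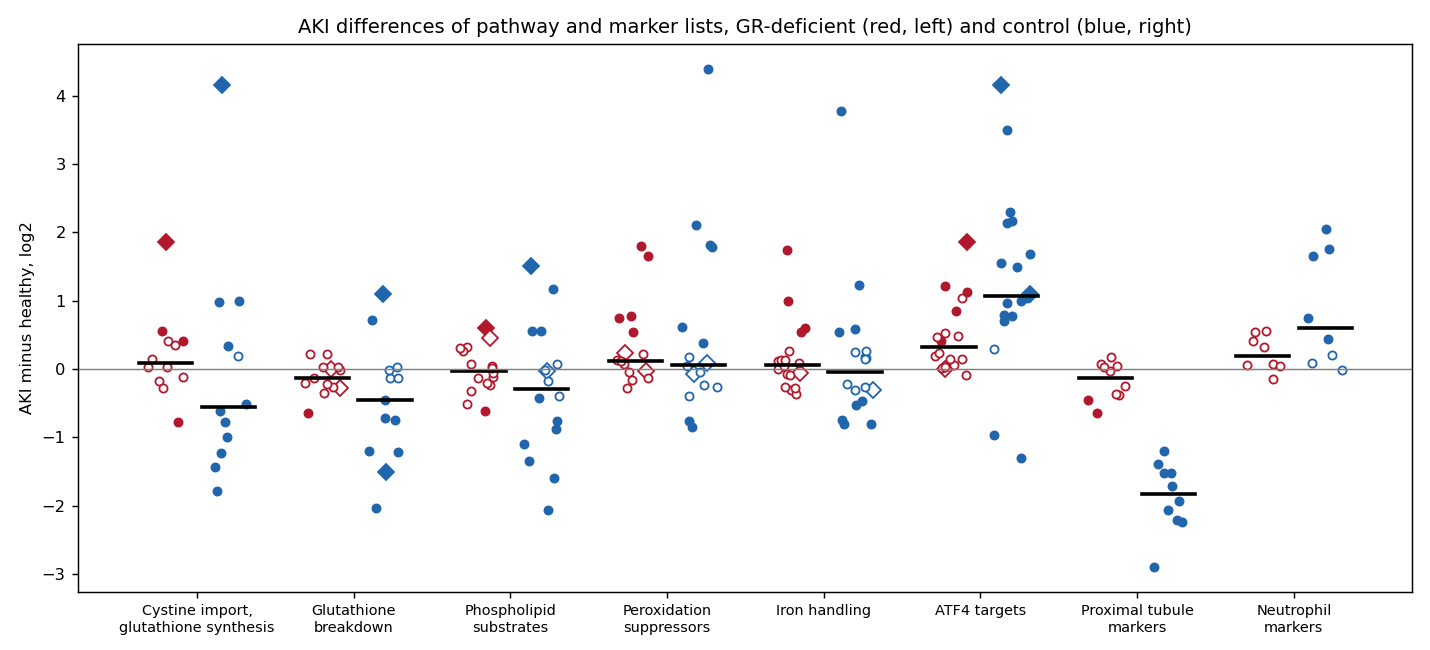
Difference between AKI and healthy cortex (log2, y axis) for each measured gene of 6 pathway lists and 2 marker lists, GR-deficient mice in red on the left and control mice in blue on the right of each pair; diamonds are the 8 genes described here, filled symbols passed, and black bars are list medians. The median of the ATF4 targets, with Slc7a11 and Chac1 included, is 0.32 in GR-deficient and 1.07 in control mice. That of the proximal tubule markers is -0.14 and -1.83.

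Markers of other cells were set beside these results. Of 8 neutrophil markers, 0 rose with AKI in GR-deficient mice and 5 rose in control mice, against 3.29% and 13.6% of all genes. Their summed level lay between 418 and 522 in GR-deficient AKI, between 388 and 417 in healthy GR-deficient, between 723 and 1031 in control AKI and between 366 and 418 in healthy control cortex, with none at 0. It was thus highest in control AKI, as were Slc7a11, Chac1 and Acsl4. With AKI in GR-deficient mice Slc7a11 and Acsl4 passed, while Chac1 and all 8 neutrophil markers did not. Yet the summed neutrophil level of every GR-deficient AKI array was above that of every healthy GR-deficient array. The median difference of these markers was 0.20. The part of neutrophils in the levels of these 3 genes was not tested. For the lists that follow, 4.64% of all genes passed with AKI in GR-deficient mice and 28.7% in control mice. With lists this short, no call in GR-deficient mice says little about a cell type. Of 8 monocyte and macrophage markers, Cd68 rose in GR-deficient mice (1.28) and in control mice (2.85), where Csf1r fell (-0.85). Of 6 markers of the loop, distal tubule and collecting duct, Calb1 (-0.55) and Atp6v1g3 (-0.53) fell in GR-deficient mice, though neither passed without AKI replicate 1, and Slc12a1 (-2.89), Calb1 (-1.22) and Slc12a3 (-0.69) fell in control mice. Of 5 endothelial markers, 0 passed in GR-deficient mice in limma, and 1 was lower without healthy GR-deficient replicate 1. In control mice Cdh5 (0.58), Flt1 (0.49) and Pecam1 (0.45) rose and Kdr (-0.94) fell. Podxl, among 3 podocyte markers, and Slc4a1, among 2 red blood cell markers, fell in control mice (-0.35 and -1.80), and no marker of these 2 lists passed in GR-deficient mice. Without control AKI replicate 1, no podocyte marker passed in control mice. None of 4 lymphocyte and 4 skeletal muscle markers passed in limma in either genotype, except that 1 lymphocyte marker was lower in control mice without that array. The markers named here and for the proximal tubule were chosen after their values were seen.

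For the 4 members whose group means spanned at least 1 on the log2 scale, the 3 genes closest in pattern were sought by the root mean square distance over the 12 arrays, after each gene was centred on its own mean. Nearest to Slc7a11 were Fosl1 (0.34), a subunit of the transcription factor AP-1, Hspb1 (0.37) and Hmox1 (0.40). Nearest to Chac1 were Oasl1 (0.11), an interferon-inducible gene, Ube2g2 (0.12), a ubiquitin-conjugating enzyme, and Btg1 (0.14), an antiproliferative factor. Nearest to Acsl4 were Mybbp1a (0.10) and Ddx21 (0.10), both nucleolar proteins, and Samd5 (0.11). Nearest to Dpep1 were Dusp15 (0.10), a phosphatase, Csrp2 (0.11), a LIM domain protein, and Atp6v1b1 (0.11), a proton pump subunit of intercalated cells. Distances grow with a gene's own span, so they compare neighbours of a member and not members with each other.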

How the data were processed

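The authors deposited log2 expression values of 35556 probe sets on 12 arrays. Per the submitters' processing notes, RMA (robust multichip averaging) and the packages oligo and affy were used; RMA corrects background, normalizes between arrays and summarises probes. No versions were found in those notes, and the log base was read from the range of the values. The number of arrays limits the precision.

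Probe sets with exactly 1 symbol in the platform annotation (21789) were kept, and 1 per gene, giving 19938 genes without a filter on low signal. Of the members, 6 had 1 probe set and 2 had 2. Groups and replicate numbers came from the sample titles. Tests used limma 3.58.1 in R 4.3.3 (4 group means, 8 residual degrees of freedom, two-sided, Benjamini-Hochberg over all genes), which was tested on simulated data.

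The members, the gene lists and the rule for named genes were chosen with earlier results of these data known. Named were all members. Of each list, up to 4 further genes per comparison were named, those with the smallest p among those that passed. The text prints some of them. Nfe2l2 was named outside this rule. Promoters were matched by symbol in RefSeq (GRCm38.p6) for 8 of 8 members. Alternatives were 2 normalizations, array weights, another prior, a filter on dim genes (a value of at least 6 on at least 3 arrays, passed by 8 members), 2 treatments of probe sets, a replicate block and leaving out each array. List counts without single arrays and the contrast averaged over conditions were added after the data were seen.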

Additional observations from a re-analysis of the deposited data

Results flagged for a closer look

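The response to AKI differed between GR-deficient and control mice, by the interaction test in limma, for 4 of the 8 genes. The interaction, the GR-deficient response minus the control response on the log2 scale, was -2.30 for Slc7a11 (adjusted p = 0.0078), -1.10 for Chac1 (0.00158), -0.91 for Acsl4 (0.00202) and 1.24 for Dpep1 (0.0002). Each of these 4 interactions passed under all 20 alternatives, with the highest adjusted p at 0.038 for Slc7a11 and 0.00886 for Acsl4. Groups of 3 arrays were not tested for outlying samples.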

How the results depend on the processing

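Of the 8 members, 4 passed in control mice with AKI, 2 in GR-deficient mice with AKI, 0 between healthy genotypes, 5 between genotypes with AKI and 4 in the interaction. The number stayed within 1.5 times under the alternatives run, except that array quality weights gave 4 in GR-deficient mice with AKI, where Aifm2 and Dpep1 were added. Leaving out each array in turn gave, in the same order, 4 to 5, 2 to 2, 0 to 0, 4 to 5 and 4 to 4. The deviations of same-numbered arrays had correlations from -0.41 to 0.25, with both signs among them. With so few arrays per group, these values cannot show whether the replicate numbers pair arrays. A replicate block gave 4, 2, 0, 5 and 4. No difference of a member that passed changed its direction under these settings. Counts over all genes moved more: with array quality weights they were 9648 (against 5715), 3196 (against 926), 301 (against 29), 7000 (against 3460) and 4905 (against 2283), in the same order, and 4355 (against 1686) for the contrast averaged over conditions. Between healthy genotypes the count was 53 after quantile normalization, 66 after cyclic loess, 71 with the trended and robust prior, 56 with the filter on dim genes and 11 over all probe sets, and 10 to 115 when an array was left out. In GR-deficient mice with AKI it was 277 to 920 when an array was left out. The cause was not tested. Normalization moved the median of all genes by at most 0.04. No detection calls were used, so signal over background is unknown, which touches the low healthy values of Slc7a11 first.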
